A study of Mus musculus with 2 samples.

Results

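Imprinted genes are genes that are transcribed mainly from the copy inherited from the father or mainly from the copy inherited from the mother. They were described here in differentiated C2C12 cells, a mouse myoblast line that fuses into myotubes when serum is lowered. The list named 36 genes, and every probe set whose only annotated gene symbol was a listed gene was taken. That gave 95 of 45101 probe sets, for 34 genes of 18193 with such a probe set. H19 and Slc22a3 had no single-symbol probe set in the annotation used here, and no gene-level value is given for either. The members were chosen by name with their intensity differences between these same arrays in view, so the differences below are a description.

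One array held RNA of cells with a hairpin against Lrrfip1, written shLrrfip1a, and the other held RNA of cells with a control hairpin, written shLCUI. Both cultures were grown with 10% fetal bovine serum and then kept for 5 days with 2% horse serum, and biotin-labelled cRNA was made from 6 ug of total RNA of each. Each group was 1 array, so the spread between cultures is unknown, and neither a p-value nor a standard error is given. The labels do not say whether a hairpin line was 1 clone. Values are the authors' intensities on a linear scale, and a log2 difference is log2(intensity + 16) in shLrrfip1a minus the same in the control. At least 2-fold means a log2 difference of 1 or more in size. A gene's value is that of its brightest probe set over both arrays, and the level filter was the median level of all probe sets, an intensity of 52.5.

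Imprinting is set by methylation of control regions in the egg or the sperm, and DNA methylation and chromatin factors then keep the mark in body cells. Many paternally expressed genes are known to promote growth of the embryo and many maternally expressed ones to limit it. In skeletal muscle, the cyclin-dependent kinase inhibitor Cdkn1c takes part in cell cycle exit, and H19, Igf2 and the Dlk1-Meg3 domain are active during muscle development. By what is known in the mouse, 17 listed genes were classed as paternally expressed and 16 as maternally expressed. The other 3 (Gnas, Blcap and Inpp5f) were classed as dependent on isoform or tissue. A class can hold in some tissues only, as for Ube3a, maternally expressed in neurons, and was not checked in C2C12 cells. The probe sets read RNA from both copies together, so no value here says which parental copy was transcribed, and more RNA per cell and more cells with the RNA cannot be told apart in these cultures.

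Mest, Cdkn1c and Peg3 were at least 2-fold higher in shLrrfip1a, and no listed gene was at least 2-fold lower. The 3 genes were counted among 18 members above the level filter, or 16.7% of them, and 0.664% of all 11439 genes above the filter were at least 2-fold higher. At least 2-fold lower were 0 members, against 0.691% of all such genes. Cdkn1c passed the filter through the shLrrfip1a array alone, since its control intensity of 50.4 lay below the filter level. Nothing is read from these shares, because the members were listed with the contrast in view. The next highest above the filter was Kcnq1ot1 at 0.40, and below the filter no member passed 0.49 in size (Dlk1 at 0.49, Plagl1 at -0.48 and Magel2 at 0.42).

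The promoters of Mest and Peg3 are shown because these are the paternally expressed members past 2-fold. The windows hold 250 bases before and 50 bases from the annotated start, from RefSeq on GRCm38.p6, where 31 of the 36 genes matched by symbol, with 46 windows in all. Capitals mark matches on either strand to the cAMP response element TGACGTCA, the CCAAT box (spelled CCAAT), the GC box (spelled GGGCGG) or the TATA box (spelled TATAAA). These motifs were chosen after the windows were read.
Peg3, chr7:6730370-6730669, minus strand: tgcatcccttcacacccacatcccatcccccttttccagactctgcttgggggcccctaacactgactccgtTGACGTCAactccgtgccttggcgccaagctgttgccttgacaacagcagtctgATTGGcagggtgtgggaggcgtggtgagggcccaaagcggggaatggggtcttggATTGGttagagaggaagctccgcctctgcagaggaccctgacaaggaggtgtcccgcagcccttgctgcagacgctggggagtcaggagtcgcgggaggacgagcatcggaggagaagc
Mest, upstream start, chr6:30733256-30733555, plus strand: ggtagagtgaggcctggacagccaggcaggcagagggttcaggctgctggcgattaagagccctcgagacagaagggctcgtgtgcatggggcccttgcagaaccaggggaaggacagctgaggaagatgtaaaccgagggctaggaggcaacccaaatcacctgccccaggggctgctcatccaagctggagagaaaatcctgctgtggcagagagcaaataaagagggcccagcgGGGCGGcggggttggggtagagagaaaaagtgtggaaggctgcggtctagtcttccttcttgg
Mest, downstream start, chr6:30737800-30738099, plus strand: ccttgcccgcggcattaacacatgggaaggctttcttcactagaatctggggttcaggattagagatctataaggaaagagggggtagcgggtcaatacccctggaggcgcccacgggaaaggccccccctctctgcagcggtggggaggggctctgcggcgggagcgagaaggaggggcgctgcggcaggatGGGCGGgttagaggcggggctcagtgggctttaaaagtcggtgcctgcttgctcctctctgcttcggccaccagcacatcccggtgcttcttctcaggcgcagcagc

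The Peg3 window held 1 cAMP response element, found in 1.79% of all 32851 windows, and 2 CCAAT boxes, found in 37.4%. It had 13 CpG dinucleotides, and 37.9% of all windows had as many or more. Each Mest window printed held 1 GC box, found in 35.7% of windows, with 8 CpG at the upstream start and 17 at the downstream start. No TATA box letters lay in these 3 windows, and 13.6% of all windows held them. Over the 46 member windows the median was 15 CpG, against 7 over all windows. The Peg3 start lay 164 bases from the start of Usp29, which is transcribed the other way, and their windows shared 263 bases.

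**Figure D1:**
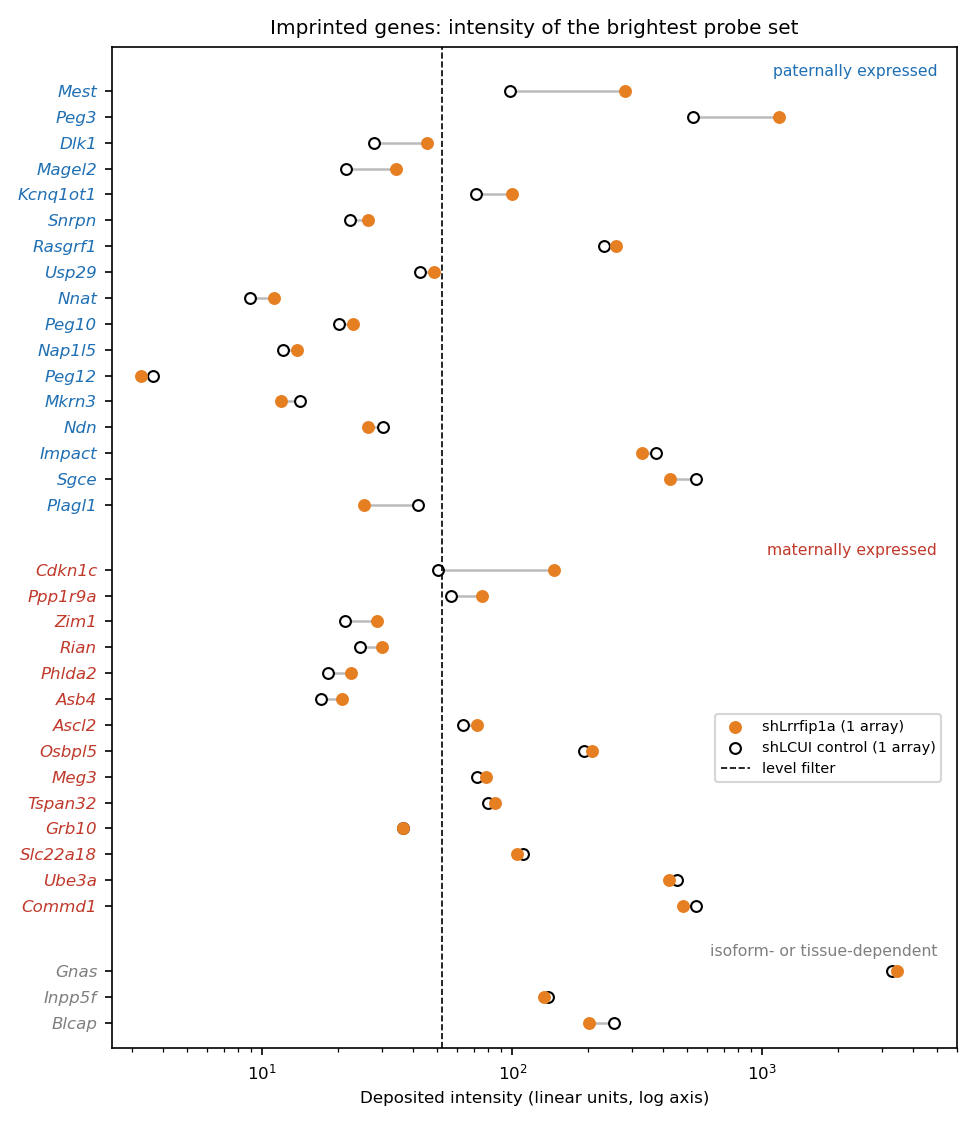
Deposited intensity of the brightest probe set (log axis) for the 34 imprinted genes with a single-symbol probe set, by parental class. Filled points are the shLrrfip1a array, open points the control array and the dashed line the level filter of 52.5. Mest, Peg3 and Cdkn1c show the widest gaps, and 16 genes lie below the filter.

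Among the paternally expressed genes, Mest had the largest difference. Mest encodes a protein of the alpha/beta hydrolase fold made in embryonic mesoderm and in growing fat. Its single probe set read 282 in shLrrfip1a and 97.7 in the control, a log2 difference of 1.39 and a plain ratio of 2.89. Of the 11439 genes above the filter, 41 had a larger difference. In its array the probe set lay at percentile 85.2 of all probe sets for shLrrfip1a and at 66.2 for the control. Copg2, a coatomer subunit gene next to Mest that is reported as imprinted in some mouse tissues, read 247 and 251 (-0.03).

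Peg3, a zinc finger gene known for roles in growth and maternal behaviour in the mouse and expressed in muscle stem cells, was the brightest of the 3. Its probe sets read 1162 against 529.9, 899 against 419.8 and 228 against 116 in the control, and all were higher in shLrrfip1a. The log2 differences were 1.11, 1.07 and 0.88, so the dimmest of these lay just under 2-fold. A further 2 Peg3 probe sets were near the bottom of the range, at 9.16 against 6.99 and 2.39 against 3.90, and they pull the mean over all 5 down to 0.62. A larger difference than that of the brightest Peg3 probe set was found for 63 of 11439 genes. Usp29, a ubiquitin protease gene on the other side of the shared promoter region shown above, read 48.5 against 42.8 (0.13) and 21.0 against 21.5 (-0.02). Both Usp29 probe sets were below the level filter, so the 2 sides of that region were not compared at like levels. Zim1, a maternally expressed zinc finger gene of the same domain, was also dim at 28.6 against 21.4 (0.25).

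**Figure D2:**
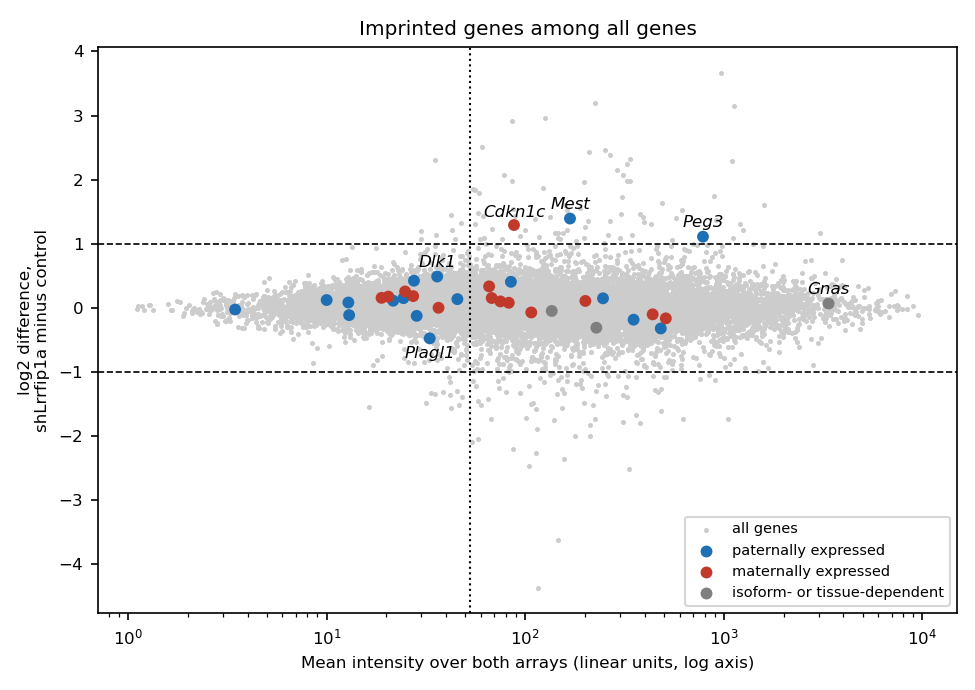
Log2 difference, shLrrfip1a minus control, against mean intensity (log axis) for all 18193 genes in grey and the 34 imprinted genes in colour. Dashed lines mark 2-fold and the dotted line the level filter. Mest, Cdkn1c and Peg3 lie above the upper dashed line and the other members lie between the dashed lines.

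The other paternally expressed genes above the filter differed less and in both directions. Kcnq1ot1, the long non-coding RNA that silences neighbouring genes on the paternal chromosome, was higher on all 6 of its probe sets, by 0.11 to 0.40. The brightest of them read 99.9 in shLrrfip1a and 71.6 in the control. Rasgrf1, an exchange factor for Ras and Rac, read 260.3 against 234 (0.15), and its 2 dim probe sets differed by 0.07 and -0.14. Sgce encodes epsilon-sarcoglycan, a membrane protein of the dystrophin-associated complexes, and it was lower on both probe sets, at 429 against 541 (-0.32) and 38.7 against 52.6 (-0.33). Impact, which restrains the eIF2alpha kinase Gcn2, gave 329 against 376 (-0.19) on its brightest probe set and 99.7 against 78.2 (0.30) on the next. Its probe sets thus went opposite ways.

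Of the 17 paternally expressed genes, 11 lay below the level filter, where no detection call tells signal from background. Dlk1, a membrane protein of the Notch ligand family known for roles in muscle growth, was the largest of these, at 45.6 against 28.0 (0.49). Its other probe set did not repeat this (32.6 against 32.6, log2 difference 0.00). Magel2, a MAGE family gene, read 34.4 against 21.6 (0.42). Plagl1 is a zinc finger transcription factor described in the mouse as a regulator of other imprinted genes, Cdkn1c among them. It was lower on 1 probe set, at 25.6 against 41.9 (-0.48), and differed by 0.06 and 0.05 on the others. Snrpn, a splicing protein gene, read 26.5 against 22.4 on its only single-symbol probe set. Some probe sets that Snrpn shares with Snurf were far brighter, so its low value here does not show that the gene was dim. Those were left out of the member values and are described at the end. Ndn, a MAGE family gene, was at most 30.4 on any of 8 probe sets in either array, and 5 of the 8 were higher in shLrrfip1a. The retrotransposon-derived Peg10 (23.1 against 20.2), the membrane proteolipid gene Nnat (11.1 against 8.95), the nucleosome assembly gene Nap1l5 (13.7 against 12.1), the ring finger gene Mkrn3 (11.9 against 14.2) and Peg12 (3.28 against 3.65) were dimmer still.

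Among the maternally expressed genes, Cdkn1c was the member past 2-fold. It encodes p57, an inhibitor of cyclin-dependent kinases. Its single probe set read 146 in shLrrfip1a, at percentile 74.3 of that array, and 50.4 in the control, at percentile 49.3. The log2 difference was 1.29 and the plain ratio 2.91. Since the control value is low, the size depends on the pseudocount, and it was 0.88 with 64 in place of 16. There were 50 genes above the filter with a larger difference.

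The listed neighbours of Cdkn1c in its domain did not share the size of its difference. In chromosomal order the listed genes with a value there are Ascl2, Tspan32, Kcnq1ot1, Cdkn1c, Slc22a18, Phlda2 and Osbpl5. The list does not cover every gene of the domain, so their values do not describe the domain as a whole. Ascl2, a basic helix-loop-helix factor of the trophoblast, read 72.4 against 63.6 (0.15). Tspan32, a tetraspanin gene, gave 85.4 against 80.1 (0.08). The transporter gene Slc22a18 stood at 104 against 111 (-0.07) on its brightest probe set. Its other probe set, below the filter, went the other way at 44.8 against 39.6 (0.13). Phlda2, which limits placental growth, stood at 22.7 against 18.3 (0.17). Osbpl5, a lipid transfer protein gene, had 209 against 193 (0.11). Of these 7 genes, which include Phlda2 below the filter, 6 were higher, with a median difference of 0.15. Over all 18193 genes, with no filter, 53.4% were higher and the median was 0.02.

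**Figure D3:**
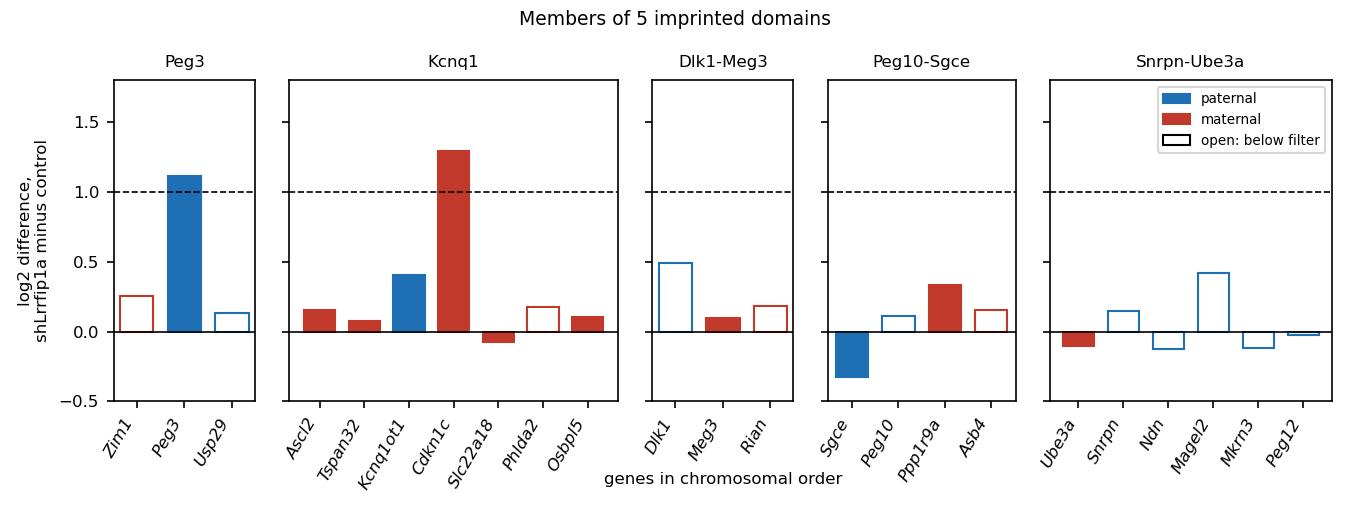
Log2 difference, shLrrfip1a minus control, of the brightest probe set of each listed gene in 5 imprinted domains, with genes in chromosomal order. Blue bars are paternally and red bars maternally expressed genes, open bars lie below the level filter and the dashed line marks 2-fold. Peg3 and Cdkn1c pass the line while their listed neighbours do not.

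The non-coding RNAs of the Dlk1-Meg3 domain were dim. Meg3 had 11 probe sets, of which 7 were higher and 4 lower, with differences from -0.44 to 0.48. The 2 above the filter read 78.2 against 72.0 (0.10) and 60.2 against 77.1 (-0.29), in opposite directions. Rian, whose 4 probe sets read 9.24 to 30.1 in shLrrfip1a and 9.85 to 24.7 in the control, differed by -0.07 to 0.18. No probe set of Meg3, Rian or Dlk1 reached 2-fold. Apart from the 2 Meg3 probe sets just given, all of them lay below the filter. Of all 15489 single-symbol probe sets at or below it, only 0.123% passed 2-fold upward and 0.174% downward. Nothing about the domain is read from this, because such a size was rare at these levels.

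Ube3a, the ubiquitin ligase gene that is maternally expressed in neurons, read 423 against 455 (-0.10) on its brightest probe set. Its 4 probe sets above the filter split evenly, with differences of -0.17 to 0.17. Commd1, which takes part in copper handling and NF-kB control, was slightly lower on both probe sets, at 481 against 542 and 167 against 189 (-0.17 for each). Grb10, an adaptor that dampens insulin receptor signalling and is reported as maternally expressed in muscle, lay below the filter on all 3 probe sets. Its brightest read 36.6 in both arrays (0.00). Ppp1r9a, which encodes the actin-binding protein neurabin, was higher on all 5 probe sets, by 0.07 to 0.48, with 75.9 against 56.9 (0.33) on the brightest. Asb4, a ubiquitin ligase adaptor gene, read 20.8 against 17.1 (0.15).

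The genes classed as isoform- or tissue-dependent differed by at most 0.31 in size on their brightest probe sets. Gnas, which encodes the stimulatory G protein alpha subunit and several other imprinted transcripts, was the brightest member at 3449 against 3296 (0.07). Its other 4 probe sets were all dimmer, from 7.45 to 106 in shLrrfip1a and from 9.46 to 84.5 in the control. They differed by -0.12 to 0.28. Inpp5f, an inositol phosphatase gene, read 134 against 139 (-0.05), and its dimmer probe sets differed by -0.19 and 0.11. Blcap, in which the Nnat gene lies, read 203 against 256 (-0.31).

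**Figure D4:**
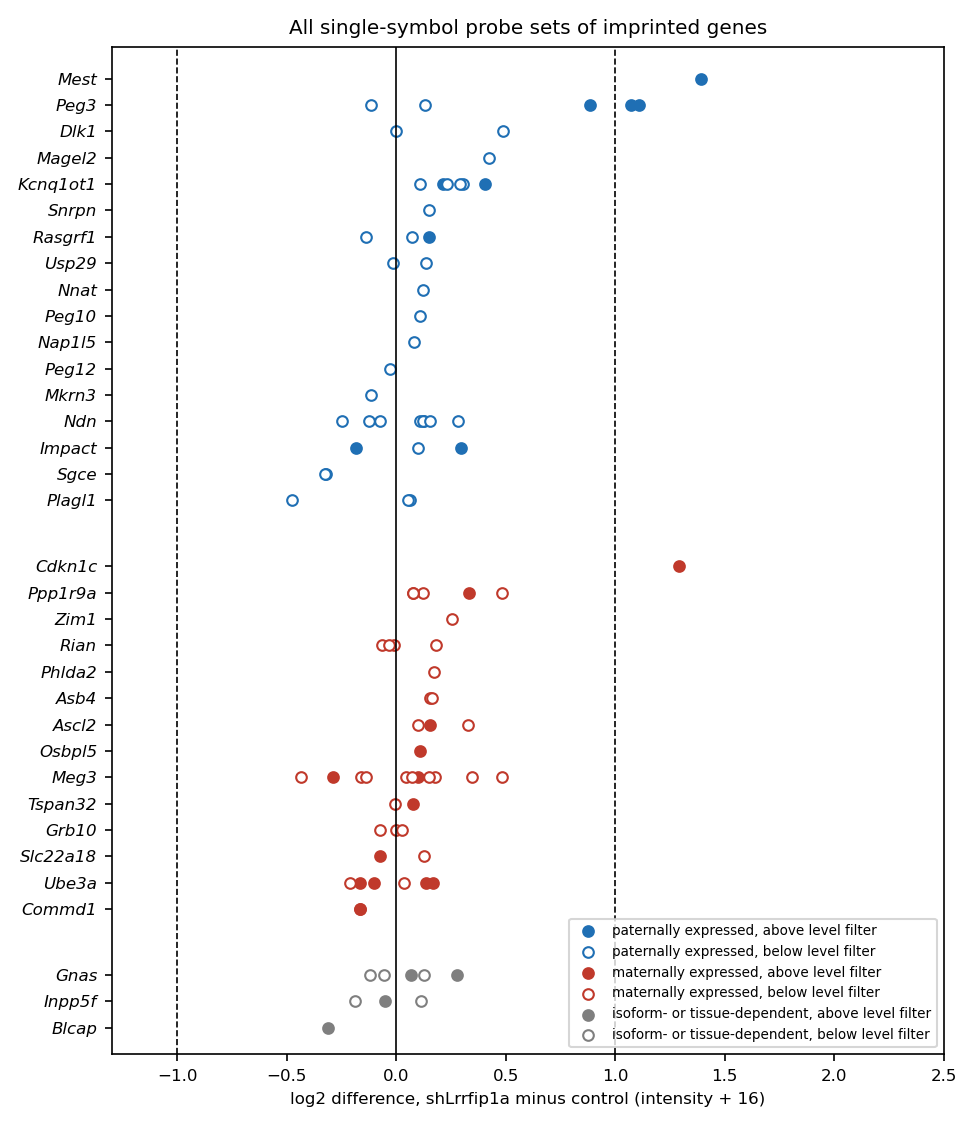
Log2 difference, shLrrfip1a minus control, of all 95 single-symbol probe sets, 1 row per gene, in blue for paternally, red for maternally and grey for isoform- or tissue-dependent expression. Filled points lie above the level filter and dashed lines mark 2-fold. Of the 28 points above the filter 4 lie past 2-fold (14.3%, against 0.622% of all single-symbol probe sets there), those of Mest and Cdkn1c and 2 of Peg3.

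The genes classed as paternally and as maternally expressed are set side by side here as a description, with no test. Of 17 paternally expressed genes 11 were higher and 6 lower (median 0.12), and of 14 maternally expressed genes with a value 10 were higher and 4 lower (median 0.13). Over all 18193 genes, 53.4% were higher and the median was 0.02. Above the filter the medians were 0.28 over 6 paternally expressed and 0.10 over 9 maternally expressed genes, against 0.00 over all genes above the filter. The paternal value rests on few genes, Mest and Peg3 among them. Of all 95 probe sets 61 were higher and 34 lower, and 90 lay within 0.5 of level, or 94.7%, against 95.0% of all 34945 single-symbol probe sets. Below the filter 43 of the 67 member probe sets were higher, or 64.2%, against 55.8% of all probe sets there.

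Of 33 further genes reported as imprinted in some mouse tissue, 27 had a value and 19 lay above the filter. There 8 were higher and 11 lower, with a median of -0.04, where 50.7% of all genes above the filter were higher. Of these 19, 1 was at least 2-fold higher, where 0.664% of all genes above the filter were. It was Dcn, the decorin gene, reported as imprinted in mouse placenta, at 3497 against 260.4 (3.67). Igf2, the paternally expressed growth factor gene, was higher on both probe sets, at 635 against 329 (0.92) and 44.8 against 29.2 (0.43). Igf2r, the maternally expressed receptor that clears Igf2, was lower on both, at 281 against 368 (-0.37) and 211 against 239 (-0.17). Pon2, a lactonase gene, was the lowest at 207 against 313 (-0.56).

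None of 17 measured genes for keeping or reading the imprint mark above the filter reached 2-fold. Among them 11 were higher and 6 lower (median 0.03), where 50.7% of all genes above the filter were higher. The shares of all such genes at least 2-fold higher and lower were 0.664% and 0.691%, so nothing is read from these counts. Uhrf1, which brings the maintenance methyltransferase to replicating DNA, read 469 against 299 (0.62), and that enzyme's gene Dnmt1 read 438 against 436 (0.01). Tet1, an enzyme that oxidises methylated cytosine, gave 91.0 against 68.9 (0.33), and Dnmt3a, a de novo methyltransferase gene, gave 65.3 against 85.0 (-0.31). The insulator protein gene Ctcf stood at 389 against 367 (0.08) and the co-repressor gene Trim28 at 971 against 828 (0.23). Methylation of the imprint control regions was not measured.

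Lrrfip1 was lower on all 3 probe sets in the shLrrfip1a array (-0.48, -0.51 and -0.66), and over all genes above the filter 92.6% differed by less than 0.5. All 8 myotube markers lay above the filter, with a summed intensity of 12921 in shLrrfip1a and 13855 in the control. Acta1 (5220 against 5586) was the largest part of both sums. The median log2 difference was -0.09, and the largest in size were those of Myod1 (0.56), Myog (-0.38) and Ckm (0.38). Of 6 fibroblast markers 5 lay above the filter, summed 10946 and 11226, with Col1a1 at -0.42, Pdgfrb at 0.35 and Pdgfra at -0.35. Col1a2 (7380 against 7540) made up most of both fibroblast sums. Each summed intensity covers all markers of its list with a value, also those below the filter. Markers of other cell types were mostly dim. Of 5 listed neuron markers 2 were above the filter (summed 172 and 188, Tubb3 at -0.25 and Rbfox3 at -0.19), of 4 macrophage markers 2 (245 and 227, Adgre1 at 0.01 and Csf1r at 0.00), and of 4 adipocyte markers with a value none (56.5 and 61.7). The endothelial sum was 197 against 115 because of Kdr (118 against 48.0, 1.07), with Pecam1, Cdh5 and Tek below the filter in both arrays. Of 2 trophoblast markers with a value Hand1 was above the filter (168 against 155, 0.10). The intensities have a floor of 1, so none could be at 0, and 1 probe set each of the adipocyte marker Fabp4 and the trophoblast marker Tpbpa lay at that floor in both arrays. The part of other cell types in the member differences was not tested.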

How the data were processed

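For 2 arrays the authors deposited linear intensities, 1 for each probe set. Per the labels' protocols, biotin-labelled cRNA was hybridized to Affymetrix arrays, and how the intensities were summarised, corrected and scaled was not given in those labels or in the table. No detection calls were used, so absence cannot be stated for any probe set, and the number of arrays limits the precision. Gene symbols came from the platform annotation, and all 34 member genes matched the GRCm38.p6 gene table by gene identifier. Computed from the intensities, with numpy 2.4.6, pandas 2.3.3 and statsmodels 0.14.6 under Python 3.11.15, were the log2(intensity + 16) differences and the counts at 2-fold, with 1 probe set per gene. The level was the mean of both arrays on that log2 scale. The counting was tested on simulated data. The members, gene lists, parental classes and alternatives were chosen with earlier results of these data known. Every member was named, and of each further list the 3 genes with the largest difference above the filter and 6 chosen genes. Outside that rule, Copg2 was named as a neighbour of Mest, and some dim cell type markers were named too. Alternatives were 4 scalings, 2 pseudocounts, 3 filter or probe set rules and 2 sizes, with 2 more chosen after seeing the data.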

Additional observations from a re-analysis of the deposited data

How the results depend on the processing

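No paired analysis was possible because there was 1 array per group, and for the same reason no array could be left out. Mest, Cdkn1c and Peg3 were all past 2-fold with median centring, quantile normalization, loess and spike-in scaling, a pseudocount of 1, no filter, and the mean over probe sets above the filter (chosen after seeing the data). Cdkn1c was not counted with a pseudocount of 64 (0.88), with the 75th percentile filter, which it does not pass, or when both arrays had to lie above the filter level (chosen after seeing the data). Peg3 was not counted with the mean over all its probe sets (0.62). At 3-fold the count of members was 0, and no alternative gave a member at least 2-fold lower. The members' median of 0.09 ranged to 0.24 with spike-in scaling, which adds 0.15 to every gene, and to -0.02 over the 10 left by the 75th percentile filter. There the maternal median was -0.10 and the paternal one 0.15. The 76 genes higher and 79 lower became 114 and 54 with spike-in scaling, 48 and 46 with the 75th percentile filter, 268 and 282 when 1.5-fold was the size, and 28 and 23 when it was 3-fold, and the lower count was 44 with a pseudocount of 64. Grb10, Inpp5f, Mkrn3, Ndn, Peg12, Meg3, Slc22a18, Ube3a and Impact, all under 0.2 in size, changed sign under at least 1 alternative.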

Other observations

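Probe sets annotated with more than 1 symbol were left out of the member values, and 7 of them carry a listed gene. The probe set annotated to both Mir675 and H19, where the microRNA lies within the H19 transcript, was among the brightest of the array at 3503 in shLrrfip1a and 3676 in the control, a log2 difference of -0.07. It lay at percentile 99.5 of all probe sets in both arrays. The 6 probe sets annotated to both Snurf and Snrpn, which share a transcript, did not move together. The 3 brightest read 425 against 385 (0.14), 384 against 399 (-0.05) and 183 against 371 (-0.96). The last 2 are both of a type that can bind related transcripts, and which transcript gave their signal was not resolved. The other 3 lay below the level filter, at 6.24 to 35.6 in shLrrfip1a and 5.69 to 46.6 in the control.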
